A study of Homo sapiens with 2 samples.

Results

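Respiratory complex I, the NADH dehydrogenase of the inner mitochondrial membrane, was followed through the nuclear genes that encode its subunits and assembly factors. The genes were taken by symbol, as all nuclear protein-coding genes whose names start with NDUFA, NDUFB, NDUFC, NDUFS or NDUFV, the NDUFAF assembly factors included. This gave 46 genes of 28117 named genes in the files, and 45 of them reached a mean CPM of at least 1, the minimum used here (CPM, counts per library scaled to one common total). The remaining gene, the readthrough locus NDUFC2-KCTD14, had 0 counts in both libraries. Of the 46 genes, 11 were NDUFS or NDUFV genes, 27 were NDUFA, NDUFB or NDUFC genes and 8 were NDUFAF genes.

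The libraries were poly-A RNA of HEK293T cells, a human embryonic kidney line, each transfected with a short 5′-phosphorylated RNA at 500 nM and collected after 120 h. The tRF-3004b library came from cells given a mimetic of tRF-3004b, a fragment of a transfer RNA, and the control library from cells given a non-targeting RNA named GL2. There was 1 library per group, so nothing below has a replicate check and no p-value is given. Each 95% interval of a ratio covers counting error only, and every difference is one between these 2 libraries.

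The sequences of both transfected RNAs are shown because they are the only difference between the groups that the labels state. Capitals mark bases 2 to 8, the stretch that works as a seed in small RNAs bound by Argonaute proteins.
tRF-3004b mimetic: uCAAAUCUcgguggaaccucca
non-targeting control: cGUACGCGgaauacuucgauu

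Complex I takes electrons from NADH, passes them through a flavin and a chain of iron-sulfur clusters to ubiquinone, and pumps protons across the inner membrane. It is L-shaped, with a matrix arm that holds the flavin and the clusters and a membrane arm that pumps. The conserved core is made of nuclear subunits, all with NDUFS or NDUFV symbols, and of ND subunits encoded by mitochondrial DNA, which were not analysed here. The other subunits are called accessory, and assembly factors help to build the complex without staying in it.

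The tRF-3004b library held 1809193 estimated counts and the control library 19609933, a 10.8-fold difference in depth. The median complex I gene that passed the minimum had 141 counts in the tRF-3004b library (range 22 to 699) and 953 in the control library (range 117 to 6040). The difference between transcript length and effective length, which follows the fragment length used in quantification, was 139 bases in the tRF-3004b library and 137 bases in the control library. Of 8 genes listed as HEK293T markers, all reached the minimum, 4 higher and 4 lower in the tRF-3004b library. The 8 HEK293T markers summed to 1193.5 CPM in the tRF-3004b library and 1688.3 CPM in the control library. Most of that sum was VIM, at 979.5 CPM in the tRF-3004b library and 1447.1 CPM in the control library. LHX1, the only one of the 8 at 0, had 0 counts in the tRF-3004b library against 61 in the control library. Summed markers of 3 other cell classes (fibroblast, epithelial, blood) stood higher after tRF-3004b, and muscle markers were not detected there. The 8 fibroblast markers summed to 96.8 CPM in the tRF-3004b library and 12.7 CPM in the control library, with none at 0 in either. The 10 epithelial markers summed to 69.8 CPM in the tRF-3004b library and 28.1 CPM in the control library, with KRT5 and KRT14 at 0 in both libraries. The 9 blood markers summed to 31.5 CPM in the tRF-3004b library and 4.51 CPM in the control library, with HBA1 at 0 in the tRF-3004b library, and the 5 muscle markers were all at 0 there. The part of other cells, and of the difference in depth, in the values below was not tested. In bulk RNA, more cells of a kind and more RNA per cell cannot be told apart.

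Scaled counts of most complex I genes were higher after tRF-3004b. Of the 45 genes, 40 had a log2 ratio above 0 (tRF-3004b over control, scaled counts), against 44.5% of all 13750 genes that passed the same minimum. The median log2 ratio was 0.77 for the complex I genes and -0.11 for all genes. At least 2-fold higher were 16 of the 45, against 12.2% of all genes, and at least 2-fold lower were 0, against 14.2% of all genes. The interval lay above 0 for 36 complex I genes (23.3% of all genes) and below 0 for 2, NDUFS1 and NDUFAF6 (28.6% of all genes). The NDUFAF6 value rests on counts of a transcript annotated as non-coding, as given with its values. With the minimum raised to a mean CPM of 10, which leaves out NDUFA3, 39 of 44 genes were above 0 (42.9% of all genes), 15 had a ratio of 2-fold or more upward (6.12%) and 0 downward (8.55%). The interval held 0 for genes such as NDUFV1, NDUFV3, NDUFA7, NDUFA10, NDUFAF1 and NDUFAF7.

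**Figure D1:**
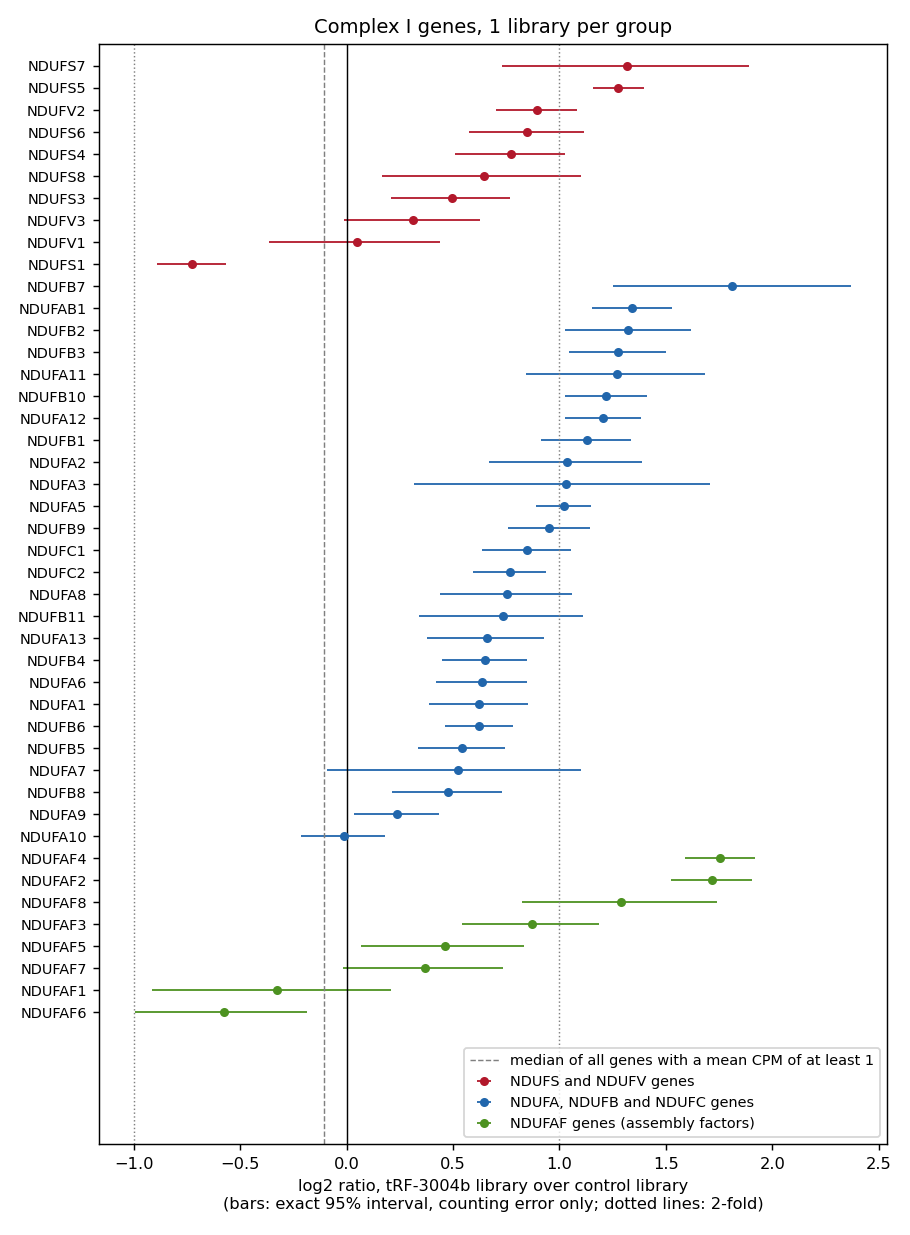
Log2 ratio of 44 of the 45 complex I genes (points, tRF-3004b library over control library) with its exact 95% counting interval (bars), by class, with the median of all genes as a dashed line. NDUFB7, NDUFAF4 and NDUFAF2 are the highest at 1.81, 1.76 and 1.71, and NDUFS1 is the lowest at -0.73.

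The per-length level of the complex was also higher. TPM, which divides by transcript length and has the same total in each library, added up to 12293 over the 46 genes in the tRF-3004b library and to 7934 in the control library, a ratio of 1.55. On the scale of log2(TPM + 1), 4 genes were at least 2-fold higher (4.95% of all genes). NDUFS1, at -1.05, was at least 2-fold lower (17.7% of all genes). The median of all genes on that scale was -0.38 and that of the complex I genes 0.41. TPM did not remove a trend with length. Across the 45 genes the Spearman rho between the TPM ratio and transcript length was -0.56. Among all genes of 61 to 882 bases, a length range that held 24 of the 45, the median on that scale was 0.37. The order of the genes was largely kept, with a Spearman rho of 0.95 between libraries across 45 genes that share both libraries. NDUFS5 was the most abundant in both libraries, at 1882.5 TPM in the tRF-3004b library and 966 TPM in the control library, followed by NDUFB1 at 1228 TPM in the tRF-3004b library and 705 TPM in the control library. The least abundant in the tRF-3004b library was NDUFV3 at 19.3 TPM, against 18.7 TPM in the control library, and the least abundant in the control library was NDUFA3 at 16.5 TPM, against 27.1 TPM in the tRF-3004b library.

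**Figure D2:**
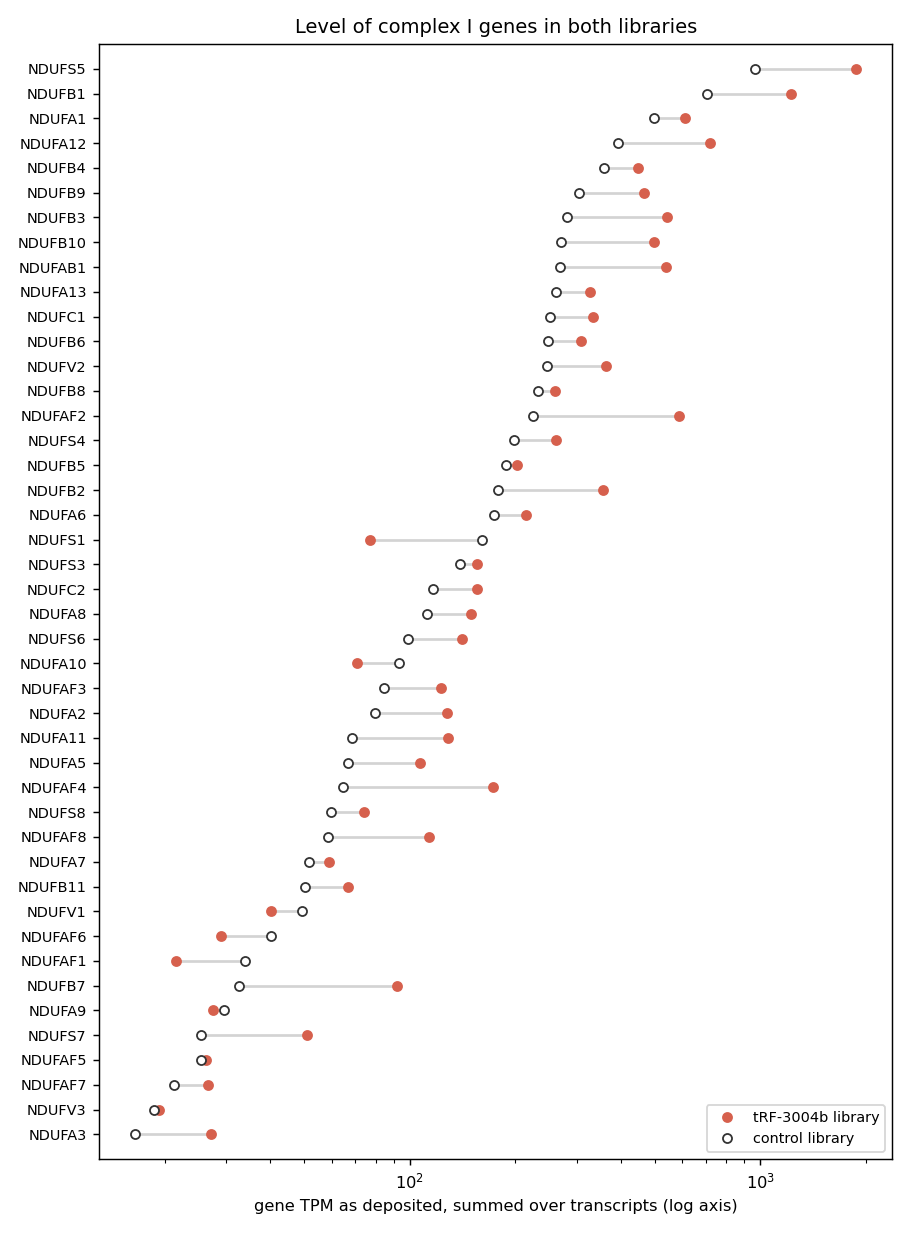
TPM of 44 complex I genes in the tRF-3004b library (filled) and the control library (open), on a log axis, ordered by the control value. The filled point lies to the right for most genes, and to the left for NDUFS1, at 77.1 TPM in the tRF-3004b library against 161 TPM in the control library.

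The 7 nuclear core subunits were split. NDUFS1, the largest subunit, which carries several of the iron-sulfur clusters of the matrix arm, was the lowest complex I gene. It had 325 counts and 77.1 TPM in the tRF-3004b library and 6040 counts and 161 TPM in the control library, a log2 ratio of -0.73 (interval -0.89 to -0.57). It had more counts than any other complex I gene in the control library and ranked behind 4 others in the tRF-3004b library (NDUFS5, NDUFA5, NDUFAF4 and NDUFB6).

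NDUFV1, which binds the flavin and NADH, had 58 counts and 40.2 TPM in the tRF-3004b library, against 630 counts and 49.2 TPM in the control library, a log2 ratio of 0.05 (interval -0.37 to 0.44). For NDUFV1 a difference in scaled counts was not detectable at this depth. NDUFS3, a matrix arm subunit, had 119 counts and 155 TPM in the tRF-3004b library and 949 counts and 139 TPM in the control library, a log2 ratio of 0.49 (interval 0.21 to 0.77).

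NDUFS7 and NDUFS8, the subunits with the clusters nearest to ubiquinone, both had log2 ratios above 0. Their main transcripts were short, at 758 and 737 bases, and all genes of like length had a median of 0.68. From that median NDUFS7 lay 0.64 above, and NDUFS8 was at -0.03. NDUFS7 had 32 counts and 50.9 TPM in the tRF-3004b library and 143 counts and 25.4 TPM in the control library, a log2 ratio of 1.32 (interval 0.73 to 1.89). NDUFS8 had 45 counts and 74.1 TPM in the tRF-3004b library and 322 counts and 59.6 TPM in the control library, a log2 ratio of 0.65 (interval 0.17 to 1.10). NDUFV2, the cluster-bearing partner of NDUFV1, had 265 counts and 363 TPM in the tRF-3004b library and 1599 counts and 247 TPM in the control library, a log2 ratio of 0.90 (interval 0.70 to 1.08). The intervals of NDUFV2 and NDUFV1 did not overlap, although the products of the 2 genes sit together at the tip of the matrix arm.

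Summed over the 7 core genes the scaled level was 547 CPM in the tRF-3004b library and 559 CPM in the control library, a log2 ratio of -0.03 (interval -0.13 to 0.06). That sum rests on NDUFS1. Without it, chosen after its value was seen, the other 6 summed to 364 CPM in the tRF-3004b library and 256 CPM in the control library, a log2 ratio of 0.50 (interval 0.38 to 0.62). The median log2 ratio of the 7 core genes was 0.49.

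The NDUFS and NDUFV symbols also include accessory subunits. NDUFS5, on the membrane arm, had 699 counts and 1882.5 TPM in the tRF-3004b library and 3239 counts and 966 TPM in the control library, a log2 ratio of 1.28 (interval 1.16 to 1.40). NDUFS4 and NDUFS6, on the matrix arm, stood at 0.77 and 0.85. NDUFV3, the small flavoprotein subunit, was at 0.31 (interval -0.01 to 0.62). Over all 11 NDUFS and NDUFV genes the median log2 ratio was 0.65. Of the 11, 9 were above 0 (44.5% of all genes) and 2 at least 2-fold higher (12.2% of all genes). NDUFS5 weighed heavily in the summed TPM of the 11 genes. With it the sum was 3130 in the tRF-3004b library and 2048 in the control library. Without it the sum was 1248 in the tRF-3004b library and 1082 in the control library.

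Accessory subunits named NDUFA, NDUFB and NDUFC were higher almost without exception. Of 26 that passed the minimum 25 had a log2 ratio above 0 (44.5% of all genes) and 24 had an interval above 0 (23.3% of all genes). At least 2-fold higher were 11, against 12.2% of all genes. Their median log2 ratio was 0.81, and their summed TPM was 8066 in the tRF-3004b library and 5333 in the control library. Most of their transcripts were short, and 20 of the 26 lay above the median of all genes of like length.

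NDUFB7, a subunit of the distal membrane arm, was the highest complex I gene. It had 37 counts and 92.0 TPM in the tRF-3004b library and 117 counts and 32.7 TPM in the control library, a log2 ratio of 1.81 (interval 1.25 to 2.37). NDUFAB1, the mitochondrial acyl carrier protein, which also serves fatty acid synthesis and iron-sulfur cluster assembly, had 288 counts and 539 TPM in the tRF-3004b library and 1276 counts and 269 TPM in the control library, a log2 ratio of 1.34 (interval 1.15 to 1.53). NDUFB2 had 118 counts and 356 TPM in the tRF-3004b library and 528 counts and 179 TPM in the control library, a log2 ratio of 1.32 (interval 1.03 to 1.62).

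The intervals of these 3 genes overlapped, so their order is not resolved. Another 8 accessory genes were at least 2-fold higher, namely NDUFB3 at 1.28, NDUFA11 at 1.27, NDUFB10 at 1.22, NDUFA12 at 1.20, NDUFB1 at 1.13, NDUFA2 at 1.03, NDUFA3 at 1.03 and NDUFA5 at 1.02. NDUFA3, with 22 counts in the tRF-3004b library and 120 in the control library, was the only complex I gene between a mean CPM of 1 and 10. Next came NDUFB9 at 0.95, NDUFC1 at 0.85 and NDUFC2 at 0.77.

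At the low end of the accessory subunits was NDUFA10, a membrane arm subunit related to deoxyribonucleoside kinases. It had 230 counts and 70.5 TPM in the tRF-3004b library and 2608 counts and 92.9 TPM in the control library, a log2 ratio of -0.01 (interval -0.22 to 0.18). On its coding transcripts alone the ratio was 0.23 (interval 0.0040 to 0.45). NDUFA9, which binds a nucleotide cofactor at the base of the matrix arm, had 229 counts and 27.4 TPM in the tRF-3004b library and 2183 counts and 29.5 TPM in the control library, a log2 ratio of 0.24 (interval 0.03 to 0.43). NDUFB8 had 141 counts and 260 TPM in the tRF-3004b library and 1139 counts and 233 TPM in the control library, a log2 ratio of 0.47 (interval 0.21 to 0.73).

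The remaining accessory genes lay between these groups. NDUFA8 was at 0.75, NDUFB11 at 0.73, NDUFA13, also known as GRIM-19, at 0.66, NDUFB4 at 0.65 and NDUFA6 at 0.64. NDUFA1 and NDUFB6 were both at 0.62 and NDUFB5 at 0.54. NDUFA7, with 28 counts in the tRF-3004b library and 218 in the control library, was at 0.52 (interval -0.09 to 1.10).

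By place in the complex, with NDUFAB1 left out because it sits in both arms, the ranges of the arms overlapped. The 16 matrix arm subunits had a median log2 ratio of 0.64, from -0.73 to 1.32, with 14 above 0, against 44.5% of all genes. The 9 subunits of the proximal membrane arm had a median of 0.77, from -0.01 to 1.28, with 8 above 0. The 11 NDUFB subunits of the distal membrane arm had a median of 0.95, from 0.47 to 1.81, with all 11 above 0. The transcripts of the distal arm were shorter, with a median length of 675 bases against 983 bases for the matrix arm.

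**Figure D3:**
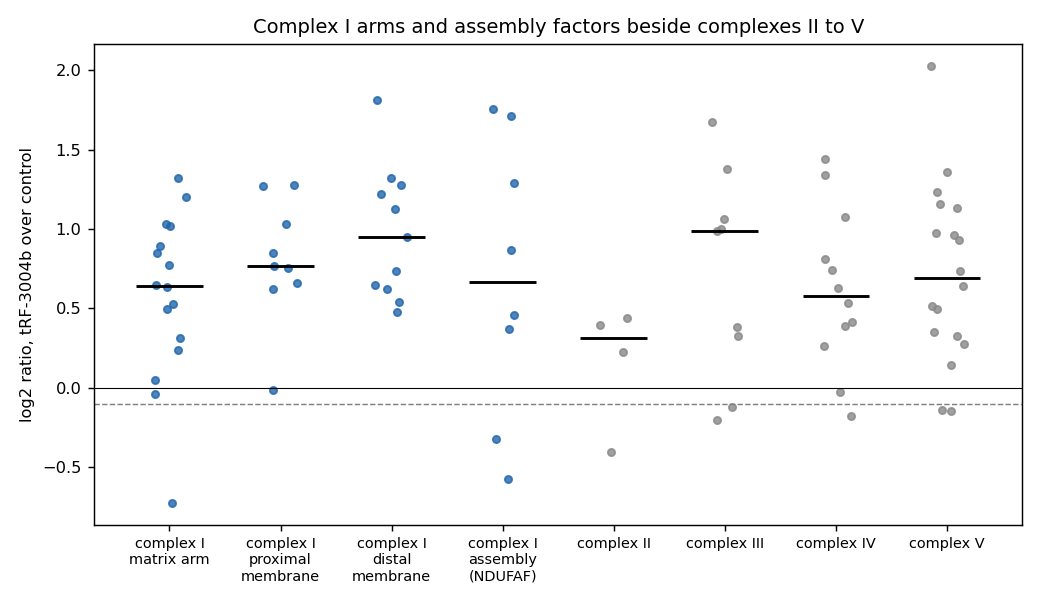
Log2 ratios (tRF-3004b library over control library) of the complex I arms and the NDUFAF genes (blue) and of complexes II to V (grey), with 1 point per gene and the median of each group as a bar; the dashed line is the median of all genes. The distal membrane arm lies entirely above 0, with a median of 0.95, and complex II has the lowest median at 0.31.

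Assembly factors stood near both ends of the range. Of the 8 NDUFAF genes 6 were above 0 (44.5% of all genes), 3 of them at least 2-fold (12.2% of all genes). The median log2 ratio of the 8 was 0.66. Their summed TPM was 1097 in the tRF-3004b library and 553 in the control library, a ratio of 1.98.

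NDUFAF4, which acts with NDUFAF3 in building the ubiquinone-binding part, had 398 counts and 173 TPM in the tRF-3004b library and 1322 counts and 64.7 TPM in the control library, a log2 ratio of 1.76 (interval 1.59 to 1.92). NDUFAF2, a relative of the subunit NDUFA12 that acts late in assembly, had 293 counts and 585 TPM in the tRF-3004b library and 1001 counts and 225 TPM in the control library, a log2 ratio of 1.71 (interval 1.52 to 1.91). The lower bounds of NDUFAF4 and NDUFAF2 lay above the point values of all other complex I genes except NDUFB7. NDUFAF8, the partner of NDUFAF5, had 50 counts and 113 TPM in the tRF-3004b library and 229 counts and 58.4 TPM in the control library, a log2 ratio of 1.29 (interval 0.82 to 1.74).

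NDUFAF6, which is needed for an early membrane-bound intermediate, had 56 counts and 29.01 TPM in the tRF-3004b library and 939 counts and 40.3 TPM in the control library, a log2 ratio of -0.58 (interval -0.99 to -0.19). NDUFAF1, a member of the membrane-bound MCIA assembly complex, had 30 counts and 21.5 TPM in the tRF-3004b library and 423 counts and 33.9 TPM in the control library, a log2 ratio of -0.33 (interval -0.91 to 0.21). NDUFAF7, a methyltransferase, had 67 counts and 26.6 TPM in the tRF-3004b library and 583 counts and 21.2 TPM in the control library, a log2 ratio of 0.37 (interval -0.02 to 0.73). On all transcripts NDUFAF6 was the only NDUFAF gene with an interval below 0, but its sign turned when only transcripts annotated as coding were summed, a choice made after seeing the data. Coding transcripts of NDUFAF6 had 46 counts in the tRF-3004b library and 384 in the control library, a log2 ratio of 0.43 (interval -0.05 to 0.87). Those of NDUFAF7 had 30 counts in the tRF-3004b library and 126 in the control library, a log2 ratio of 1.41 (interval 0.79 to 2.002). The median of the 8 NDUFAF genes was 1.08 on coding transcripts, against 0.66 on all.

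Values of some known partners, picked after they were seen, are set side by side. NDUFAF3 was at 0.87 (interval 0.54 to 1.19), below the interval of NDUFAF4. NDUFAF5, which hydroxylates NDUFS7, was at 0.46 (interval 0.07 to 0.84) beside 1.29 for its partner NDUFAF8 and 1.32 for NDUFS7, with overlapping intervals. NDUFA12, the subunit related to NDUFAF2, was at 1.20 (interval 1.02 to 1.38), below the interval of NDUFAF2.

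Assembly genes with other names were mixed as well. All 14 on the list passed the minimum and 11 were above 0 (44.5% of all genes), with a median log2 ratio of 0.50. Of the 14, 3 were at least 2-fold higher (12.2% of all genes) and none was at least 2-fold lower (14.2% of all genes). The highest were DMAC2 at 1.36 (interval 0.87 to 1.84), with 46 counts in the tRF-3004b library and 200 in the control library, and TMEM126B at 1.26 (interval 1.10 to 1.42), with 408 counts in the tRF-3004b library and 1910 in the control library. TMEM126B belongs to the MCIA complex together with NDUFAF1, ACAD9 at -0.17 and ECSIT at 0.48, so their values stood on both sides of 0, although the intervals of NDUFAF1, ACAD9 and ECSIT held 0. The lowest were OXA1L, which inserts mitochondrially encoded proteins into the membrane, at -0.87 (interval -1.21 to -0.55), with 82 counts in the tRF-3004b library and 1687 in the control library, and NUBPL, which delivers iron-sulfur clusters to complex I, at -0.23 (interval -0.63 to 0.14).

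Of 10 listed regulators of mitochondrial gene expression, 9 passed the minimum, 6 were above 0 (44.5% of all genes) and the median log2 ratio was 0.15. Their transcripts were long, with a median of 4718 bases, and 8 of the 9 lay above the median of all genes of like length, by a median of 0.48. The mitochondrial transcription factor TFB2M was the highest at 1.51 (interval 1.17 to 1.84), with 93 counts in the tRF-3004b library and 366 in the control library, followed by the coactivator PPRC1 at 0.93 (interval 0.60 to 1.26). ESRRA, with 2 counts in the tRF-3004b library and 41 in the control library, was the lowest at -0.82 (interval -3.96 to 1.08), followed by PPARGC1B at -0.37 (interval -1.01 to 0.22). PPARGC1A, which encodes the coactivator PGC-1alpha, had 0 counts in the tRF-3004b library and 29 in the control library and was under the minimum.

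Transcript length ran along with these values. When all 13750 genes were put in 20 bins by length, those with the shortest transcripts had a median of 0.68 and those with the longest one of -0.42. Spearman's rho between log2 ratio and length was -0.29 over these genes. Across the 45 complex I genes rho was -0.59, and without NDUFS1, the gene with the lowest ratio, and NDUFA9, the gene with the longest transcript, it was -0.54. Genes share both libraries and are not replicates, so these are descriptions. All 28 complex I genes with a main transcript under 1000 bases were above 0, against 44.5% of all genes of any length. Their median was 0.99, where all 917 genes of that length had a median of 0.64. Most short genes were above 0 as well: in the shortest bin the lower quartile of all genes was -0.017. Of the 17 complex I genes with longer transcripts 12 were above 0, against 44.5% of all genes of any length. The median of the 17 was 0.37, where all 12833 genes of that length had a median of -0.14. The share above 0 within each length class was not computed.

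Set against genes of like length, the excess of complex I was smaller. Of the 45 genes, 33 lay above the median of their own length bin, against 50% of all genes, and the median distance was 0.31. By class, 7 of 11 NDUFS and NDUFV genes, 20 of 26 NDUFA, NDUFB and NDUFC genes and 6 of 8 NDUFAF genes lay above it. Of the 7 core genes, 3 did. The shortest bin ran from 61 to 882 bases and held 24 of the 45 genes, so length within it was not matched further.

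The length trend left clear exceptions upward, and those downward were less clear. NDUFAF4, with a main transcript of 2407 bases, lay 1.71 above its bin. NDUFA5, a matrix arm subunit with a main transcript of 5496 bases, lay 1.34 above its bin, with 584 counts and 107 TPM in the tRF-3004b library and 3230 counts and 66.7 TPM in the control library. The short transcripts of NDUFB7 (535 bases) and NDUFAF2 (632 bases) lay 1.13 and 1.04 above. Below the medians of their bins lay NDUFS1 (3393 bases), at -0.61 from its bin's median, and NDUFAF1 (1509 bases), at -0.52. The log2 ratio of NDUFS1, -0.73, was under its bin's lower quartile of -0.63, which its counting interval held. That of NDUFAF1, -0.33, was above its bin's lower quartile of -0.38, and its counting interval held the bin's median of 0.20. NDUFAF6 was at -0.40 from its bin's median, but the 3868-base transcript that set its bin is annotated as non-coding. Its log2 ratio of -0.58 was also above that bin's lower quartile of -0.63.

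**Figure D4:**
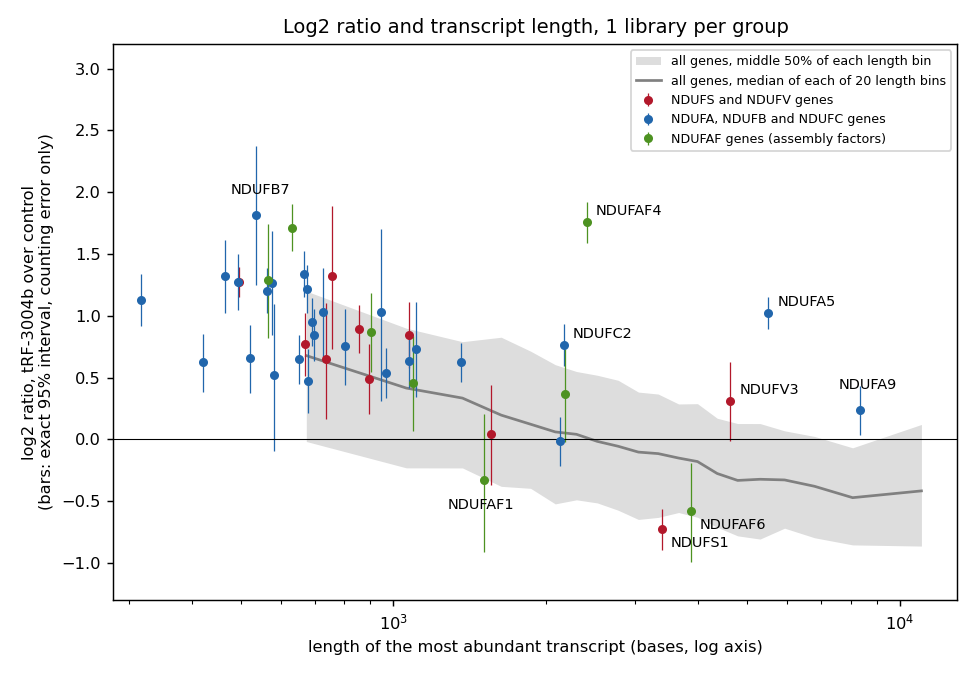
Log2 ratio (tRF-3004b library over control library) against the length of the most abundant transcript in bases, on a log axis; points are 44 complex I genes with 95% counting intervals, the grey line and band are the median and middle 50% of all genes in 20 length bins. NDUFAF4 and NDUFA5 lie far above the band at the RefSeq lengths plotted, and NDUFS1, at -0.73, lies below its bin's median of -0.11.

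Within NDUFS1, the long and the short transcript had overlapping intervals. The 3393-base transcript had 227 counts in the tRF-3004b library and 4181 in the control library, a log2 ratio of -0.71 (interval -0.91 to -0.52). The 11660-base transcript had 97.5 counts in the tRF-3004b library and 1859 in the control library, a log2 ratio of -0.77 (interval -1.08 to -0.48). In NDUFB5 the 4199-base transcript was at 1.08 (interval 0.68 to 1.47), above the 969-base transcript at 0.41 (interval 0.16 to 0.65), which is the reverse of the order that length has across all genes. Counts per transcript are kallisto's estimates, and the intervals do not cover the error of splitting reads among transcripts.

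Sequence features were set beside the values as a description. Bases 2 to 8 of tRF-3004b are matched by the heptamer AGATTTG. It occurred in the 3′ UTR of 4 of 42 complex I genes searched (9.52%), against 15.1% of 11174 genes, and the complex I UTRs were short, with a median of 160 bases against 1062 bases. The windows are shown because they are the only perfect seed matches in the UTRs searched, with the heptamer in capitals. Each UTR is that of the GENCODE release 29 transcript paired with the main RefSeq transcript, and the 2 can differ in length. For NDUFA5 the searched UTR held 1090 bases, and the whole main RefSeq transcript 5496 bases. Sequence outside the searched UTRs was not read for matches.
NDUFAF4, chromosome 6: ctttgaatgtAGATTTGttatgtgaac
NDUFA5, chromosome 7: ggccatgggaAGATTTGaaaattatta
NDUFAF3, chromosome 3: gctcacatgcAGATTTGagaggacctc
NDUFA9, chromosome 12, first: ggtctccaggAGATTTGtatgcacatt
NDUFA9, chromosome 12, second: agttccatacAGATTTGgcttcgaata

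None of the 4 genes with a match was lower in the tRF-3004b library. Their log2 ratios were 1.76 for NDUFAF4, 1.02 for NDUFA5, 0.87 for NDUFAF3 and 0.24 for NDUFA9, with a median of 0.95, against a median of 0.77 for the complex I genes searched that had no match. Across all genes the medians were -0.25 with a match and -0.08 without. These groups were not matched for transcript length, with which log2 ratios fell across all genes (rho -0.29). The part of the seed in this difference was not tested.

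Promoters were read from the RefSeq table (GRCh38.p14, 250 bases before to 50 after the start), which held 40 of the 46 genes. The ETS core CCGGAAG, on either strand, was in 6 of them (15%), against 19.2% of the promoters of the 10906 measured genes. The exact consensus of NRF1, a regulator of respiratory genes, was in 3 (7.5%, against 2.38%), in NDUFA8, NDUFAF5 and NDUFB4, whose log2 ratios were 0.75, 0.46 and 0.65. The letters AAGATGGC, as in YY1 sites, were in 6 (15%, against 5.36%), NDUFA3, NDUFA6, NDUFA7, NDUFA9, NDUFS4 and NDUFS7, each time 10 to 25 bases after the start. The GC box core GGGCGG was in 23 (57.5%, against 69.3%). All motifs were searched on both strands, and in NDUFS3 an ETS match overlaps a GC box match. A match is a description, not evidence of binding.

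Upstream stretches are shown for a pair of genes that share a motif and lie far apart in ratio. NDUFAF4 and NDUFS1 both hold the ETS core, in capitals, and had log2 ratios of 1.76 and -0.73. Each stretch is the 200 bases before the start on the gene's minus strand, GRCh38.p14, chr6:96897892-96898091 for NDUFAF4 and chr2:206159445-206159644 for NDUFS1, where the core is on the opposite strand.
NDUFAF4: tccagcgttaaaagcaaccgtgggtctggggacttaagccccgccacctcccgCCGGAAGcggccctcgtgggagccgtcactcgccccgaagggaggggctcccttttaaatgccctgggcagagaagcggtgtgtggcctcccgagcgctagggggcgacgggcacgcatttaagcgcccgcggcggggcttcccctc
NDUFS1: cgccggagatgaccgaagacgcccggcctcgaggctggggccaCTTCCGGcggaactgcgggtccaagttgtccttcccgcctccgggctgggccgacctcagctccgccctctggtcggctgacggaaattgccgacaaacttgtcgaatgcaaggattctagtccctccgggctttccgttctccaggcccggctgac

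The other respiratory complexes and the mitochondrial ribosome are given as context. Median log2 ratios were 0.31 for the 4 genes of complex II, 0.99 for 9 of complex III, 0.58 for 12 of complex IV and 0.69 for 18 of complex V that passed the minimum, and 0.79 for 77 mitochondrial ribosomal protein genes. The ratio of summed TPM, tRF-3004b over control, was 1.55 for complex I, 0.952 for complex II, 1.42 for complex III, 1.17 for complex IV, 1.38 for complex V and 1.44 for the mitochondrial ribosome. COXFA4, formerly NDUFA4 and now counted to complex IV, had 651 counts in the tRF-3004b library and 5492 in the control library, a log2 ratio of 0.41 (interval 0.29 to 0.53). PYURF, which acts with NDUFAF5 and lacks an NDUFAF symbol, was at 0.58 (interval 0.38 to 0.78).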

How the data were processed

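Per the submitters' processing notes, quantification was by kallisto 0.46.1 with build GRCh38. The files deposited by the authors list 70866 RefSeq transcripts with estimated count, TPM, length and effective length, per the file headers. The library kit was directional, per the labels' protocols; how strand was set, how reads were trimmed and which annotation release was used were not given in the sources used here. Transcripts were named with the RefSeq gene table of GRCh38.p14 (70245) and with GENCODE release 29 (293). The 328 left unnamed held 0.0713% of tRF-3004b and 0.0723% of control counts and were left out. Estimated counts deposited by the authors were summed per gene and rounded. Deposited TPM values were summed per gene.

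Scaling used TMM (edgeR 4.0.16, R 4.3.3) over all genes, with factors 0.983 for tRF-3004b and 1.02 for control. No edgeR test was run, since 1 library per group leaves no spread. The log2 ratio is tRF-3004b over control with 0.5 added after scaling both libraries to their geometric mean size, with a 95% Clopper-Pearson interval, exact and conditional on the summed count. No molecular identifiers are stated, so reads need not be separate molecules and intervals cover counting error only. The computation was tested on simulated counts. Transcript length is that of the transcript with the highest summed TPM, with 20 bins of equal number over the genes that passed the minimum.

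Full values are given for the 7 core subunits and for the 3 highest and 3 lowest genes of each class with a mean CPM of at least 10, except 1 gene that is not reported here by name. For the other lists the 2 highest and 2 lowest members are named. Members and lists were chosen with earlier results of these data known. The split at 1000 bases, the promoter motifs, the printed promoters, and the genes named as length exceptions or as partners were chosen after values were seen. As alternatives, ratios were recomputed with size factors of DESeq2 1.42.0, with library totals, with TPM plus 1, with a minimum mean CPM of 10 or any gene counted once, with a pseudocount of 5, with the length bin's median subtracted, with other member sets or a TPM-weighted length, and, added after seeing the data, with coding transcripts only. Exact 31-base words were compared with all GENCODE 29 transcripts: of 43 paired members, 7 shared at least 20% of their words with another gene, and only NDUFC2-KCTD14 did so with genes in the files (NDUFC2 and KCTD14). NDUFV2 shared 82.3% of its words with AP005263.1, and NDUFA11, NDUFA13, NDUFA7, NDUFAF2 and NDUFB8 shared words with other loci that are not in the files, so their counts are less certain. Python 3.11.15 was used.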

Additional observations from a re-analysis of the deposited data

How the results depend on the processing

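The direction of the complex I genes as a group was kept under the alternatives run, but its size was not. With gene TPM and 1 added, the median log2 ratio of complex I genes was 0.41, that of NDUFA, NDUFB and NDUFC genes 0.42, 4 genes (NDUFB7, NDUFAF4, NDUFAF2 and NDUFAB1) were at least 2-fold higher and 1 (NDUFS1, at -1.05) at least 2-fold lower. TPM moved the median of all genes to -0.38, so the distance of the complex I median from it was 0.79, against 0.87 with scaled counts; the share of all genes past 2-fold was then 4.95% upward and 17.7% downward, and with scaled counts 12.2% upward and 14.2% downward. With the median of the length bin subtracted, the complex I median was 0.31, that of NDUFA, NDUFB and NDUFC genes 0.34, and 4 of 45 genes were at least 2-fold higher, where 11.4% of all genes were, so no excess past 2-fold was left. Here the construction removes what genes of like length share. Total counts, DESeq2 size factors, the other filters, a pseudocount of 5, the other member sets and the TPM-weighted length gave values within the counting or order-statistic intervals. With coding transcripts only, added after seeing the data, the complex I median was 0.77 and the NDUFAF median 1.08. In that setting 16 complex I genes were at least 2-fold higher, against 11.4% of all 12204 genes, and signs turned for NDUFA10 and NDUFAF6. Signs also turned for NDUFA9 and NDUFV1 with TPM, for NDUFV1 with total counts, for NDUFA10 with DESeq2 size factors, and for NDUFA1, NDUFA13, NDUFA7, NDUFB4, NDUFB8, NDUFS8 and NDUFV1 with the length bin subtracted. No gene at least 2-fold apart turned its sign. No paired analysis was possible because each group has 1 library, and for the same reason no library could be left out.

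The lower depth of the tRF-3004b library limits the precision: NDUFA3 had 22 counts there, NDUFA7 28, NDUFAF1 30 and NDUFS7 32.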

Other observations

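The estimated make-up of transcripts differed between libraries for some complex I genes, given here as values only. RefSeq transcripts annotated as non-coding held 18.6% of the NDUFAF6 counts in the tRF-3004b library (56 counts in all) and 59.1% in the control library (939 counts), and those of NDUFAF7 held 54.4% in the tRF-3004b library and 78.5% in the control library. For NDUFA10, whose gene total had a log2 ratio of -0.01, the 2130-base coding transcript was at -0.13 (interval -0.49 to 0.20), the 4855-base coding one at 0.56 (interval 0.26 to 0.85) and the 4725-base non-coding one at -0.72 (interval -1.20 to -0.29). For NDUFC1, the 696-base transcript had 77.1 counts in the tRF-3004b library and 987 in the control library, a log2 ratio of -0.19, and the 725-base transcript had 80.8 counts in the tRF-3004b library and 171 in the control library, a log2 ratio of 2.40. For NDUFV3, whose gene total was at 0.31, the 5725-base coding transcript was at -0.57 (interval -1.21 to -0.0047). The 4630-base coding transcript of NDUFV3 was at 0.89 (interval 0.50 to 1.27). The error of kallisto's split among transcripts at the lower depth was not tested.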
